A study of Mus musculus with 12 samples.

Results

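The effect of CX3CL1 on CT26 cells that were also treated with IFN-γ was measured by RNA sequencing in 6 libraries of a series of 12. The members were set by their labels, as the 3 CX3CL1+IFN-γ libraries and the 3 IFN-γ libraries. CT26 cells are a line from a mouse colon carcinoma, and all libraries came from this 1 line in culture. The IFN-γ group received IFN-γ at 100 ng/ml, the CX3CL1+IFN-γ group received the same IFN-γ with recombinant CX3CL1 at 2 µg/ml, and cells were taken after 8 hours. The study's text places IFN-γ and TNF-α first and CX3CL1 after them, with no interval given. Its figure legend and the labels name IFN-γ without TNF-α, so whether TNF-α was present is uncertain. The CX3CL1 dose comes from its methods and the IFN-γ dose from that legend. The other 6 libraries were 3 of CT26 cells with CX3CL1 alone and 3 with No treatment. The libraries are labelled biological replicates, numbered 1 to 3 in each group. The comparison asks whether CX3CL1 induces soluble mediators in tumor cells that are already under an inflammatory stimulus.

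The deposited values are TPM (transcripts per 1000000), which sum to that number in every library, so that read depth is unknown and a value is a share of its library. At 1 TPM or more, a library held between 10613 and 10824 gene symbols, and replicates of the IFN-γ and CX3CL1+IFN-γ groups correlated at 0.988 to 0.995 (Pearson, log2(TPM + 1), genes tested). A gene was tested when its mean over the 12 libraries was at least 0.2 TPM, which 11878 of 23636 symbols passed. A gene was called higher or lower when its adjusted p in limma was under 0.05, with the change given as log2 fold change of TPM + 1, a scale on which genes of low TPM change by less than their ratio of TPM. With 3 libraries against 3, an exact two-sided permutation test of a single gene cannot go below 0.1, so that calls depend on limma's spread, pooled over genes and all 12 libraries.

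CX3CL1, or fractalkine, is a chemokine that exists as a membrane-bound and as a shed form, and its classical receptor is CX3CR1, a G-protein coupled receptor best known on monocytes, microglia and natural killer cells. IFN-γ signals through the JAK kinases and induces genes of antigen presentation, antiviral defense and the CXCR3-ligand chemokines. NF-kB is a family of transcription factors held inactive by IkB proteins, and its known targets include neutrophil-attracting chemokines, IL-6 and several of its own inhibitors.

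In the fit that did not use the replicate numbers, adding CX3CL1 to IFN-γ raised a small set of genes. It was led by chemokines that bind CXCR2, the chemokine receptor of neutrophils. More genes were called once the replicate numbers were used, as given below. CXCL5 and CXCL1 had the largest changes of the genes called, with log2 fold changes of 4.34 and 4.17, followed by NOS2 at 3.28, CXCL3 at 3.19 and NFKBIZ at 2.46. Of the 11878 genes tested, 43 were called (0.362%), with 41 higher (0.345%) and 2 lower (0.0168%), and 23 of the higher genes had a log2 fold change of at least 1. The median log2 fold change of all genes tested was -0.003. In each of the 43 genes the CX3CL1+IFN-γ libraries lay wholly above or wholly below the IFN-γ libraries, which also held for 8.54% of all genes tested in the upward and 7.74% in the downward direction.

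The replicate numbers paired these 6 libraries, since same-numbered libraries departed from their group means in the same direction across genes. Blocking on the replicate number gave 95 called genes over the 12 libraries (0.800%; 89 higher, 0.749%, and 6 lower, 0.0505%). With the block in a fit of only the 6 libraries compared, 407 genes were called (3.43%; 306 higher, 2.58%, and 101 lower, 0.850%). All 43 genes were among the 95, and all 95 were among the 407. Without a block, leave-one-out fits, each without 1 library, gave 26, 17 and 23 called genes without IFN-γ replicates 1, 2 and 3, and 17, 54 and 16 without CX3CL1+IFN-γ replicates 1, 2 and 3. Of the 43 genes, 14 were called in all 6 of these fits, and they were CXCL1, CXCL2, CXCL3, CXCL5, PPBP, CCL20, IL6, IL13RA2, NFKBIZ, NFKB1, ZC3H12A, LANCL3, FNDC7 and CLDN6.

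All 5 CXCR2 ligands that could be tested were called higher (5 of 5, beside 0.345% of all genes tested), with a median log2 fold change of 3.19. The sixth gene of the list, CXCL15, was listed at 0 in all libraries. This and the other gene lists were chosen with earlier results of these data known, so counts of their members called are descriptions only. CXCL1, the most abundant, was at 71.7, 39.0 and 54.5 TPM in the IFN-γ libraries (replicates 1, 2 and 3) and at 1551, 499.9 and 1218 TPM in the CX3CL1+IFN-γ libraries. The lowest CX3CL1+IFN-γ library was several times above the highest IFN-γ library, and replicate 2 was the lowest in both groups. The log2 fold change of CXCL1 was 4.17 ± 0.38 (SE, adjusted p = 0.000258), and the ratio of the group means in TPM was 19.8.

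CXCL5 was at 3.10, 0.906 and 1.36 TPM with IFN-γ and at 69.0, 33.1 and 62.5 TPM with CX3CL1+IFN-γ, a log2 fold change of 4.34 ± 0.35 (SE, adjusted p = 0.000111). CXCL3 was at 1.28, 1.08 and 2.60 TPM and at 16.3, 19.4 and 36.3 TPM, a log2 fold change of 3.19 ± 0.28 (SE, adjusted p = 0.00019). These genes were far apart between the groups in all libraries, with group means 30.7 and 14.5 times as high in TPM. CXCL2 was scarce with IFN-γ, at 0.294, 0.142 and 0.234 TPM, and was at 4.07, 3.98 and 8.80 TPM after CX3CL1 was added. Its log2 fold change was 2.36 ± 0.22 (SE, adjusted p = 0.000331), and the ratio of its group means in TPM was 25.1, which places it between CXCL5 and CXCL1 on that scale. PPBP, the platelet basic protein gene, had the smallest change of the family, from 1.52, 1.61 and 2.11 TPM to 4.24, 4.36 and 4.87 TPM (log2 fold change 1.00 ± 0.12 SE, adjusted p = 0.00145).

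**Figure D1:**
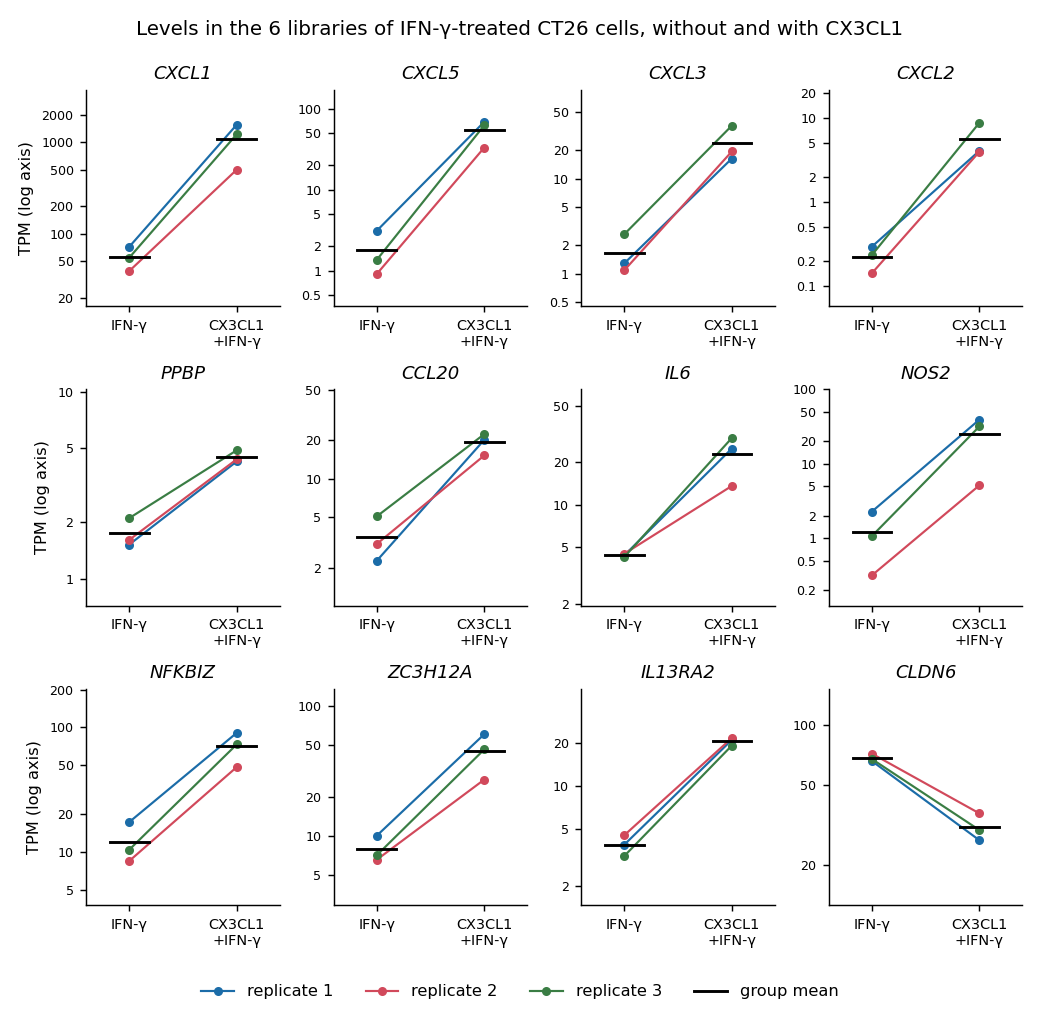
TPM on a log axis of 12 called genes in the 3 IFN-γ and the 3 CX3CL1+IFN-γ libraries; points are libraries, lines join libraries with the same replicate number and black bars are group means. The groups do not overlap in any of the 12 genes; 11 rose, among them CXCL1 to between 499.9 and 1551 TPM, and CLDN6 fell to between 26.5 and 36.1 TPM.

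The 5 genes lie in 1 chemokine cluster on the plus strand of mouse chromosome 5 (GENCODE vM21, GRCm38), with CXCL5 at chr5:90759360-90761624, PPBP at chr5:90768518-90770063, CXCL3 at chr5:90786103-90789600, CXCL1 at chr5:90891241-90893115 and CXCL2 at chr5:90903871-90905938. How reads shared by such similar neighbours were assigned is not given in the sources used here, so that the split of counts among CXCL1, CXCL2 and CXCL3 is uncertain. The 120 bases before the annotated start of 4 of them are printed from RefSeq (GRCm38.p6, plus strand, 5′ to 3′) because CXCL1, CXCL2 and CXCL3 share a stretch there that PPBP does not have. No promoter of CXCL5, the gene of the cluster with the largest change, was in the table used here, so the stretch cannot be set against the size of change. Capitals mark a match, or overlapping matches, to the NF-kB consensus. Windows and distances are counted from the RefSeq starts, which differ from the GENCODE starts above for CXCL1, CXCL2 and CXCL3. The windows of CXCL1 and CXCL2 end inside the GENCODE gene. The windows are chr5:90891125-90891244 for CXCL1, chr5:90903779-90903898 for CXCL2, chr5:90785981-90786100 for CXCL3 and chr5:90768398-90768517 for PPBP, and the window of IL6, chr5:30012994-30013113, is added as that of a called gene outside the cluster.
CXCL1: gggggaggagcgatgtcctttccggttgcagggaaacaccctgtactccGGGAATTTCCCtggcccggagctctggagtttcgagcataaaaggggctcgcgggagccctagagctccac
CXCL2: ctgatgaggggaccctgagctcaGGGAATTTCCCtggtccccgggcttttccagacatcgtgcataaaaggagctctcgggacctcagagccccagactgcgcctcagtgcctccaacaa
CXCL3: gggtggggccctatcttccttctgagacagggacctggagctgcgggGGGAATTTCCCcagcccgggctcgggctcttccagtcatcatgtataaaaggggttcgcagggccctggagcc
PPBP: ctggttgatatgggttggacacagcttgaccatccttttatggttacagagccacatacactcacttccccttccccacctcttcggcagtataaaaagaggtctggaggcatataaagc
IL6: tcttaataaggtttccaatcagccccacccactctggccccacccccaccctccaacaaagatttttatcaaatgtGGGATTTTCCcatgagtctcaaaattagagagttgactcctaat

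The same 11 letters, GGGAATTTCCC, begin 71 bases before the start of CXCL1, 97 before that of CXCL2 and 73 before that of CXCL3, and IL6 holds GGGATTTTCC from 44 bases before its start. Both strands of the RefSeq promoters (250 bases before to 50 after each start) were searched for this consensus, for the AP-1 site TGANTCA and for the gamma-activated site TTCNNNGAA. Promoters were found for 31 of the 41 genes called higher and for 9343 of the genes tested. The NF-kB consensus was in 6 of the 31 (19.4%; CCL20, CXCL1, CXCL2, CXCL3, IL6 and SOD2), beside 6.21% of the genes tested and 4.51% of all promoters in the table. The AP-1 site was in 8 of the 31 (25.8%), beside 6.29% of the genes tested and 7.81% of all promoters. The gamma-activated site was in 3 of the 31 (9.68%), beside 8.34% of the genes tested and 8.30% of all promoters. Among the genes called higher in the paired fit of 6 libraries, 231 of 306 had a promoter, with the NF-kB consensus in 13.4%, the AP-1 site in 16.0% and the gamma-activated site in 11.3%. A match is a run of letters and not a measured binding site.

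Cytokine genes and a cytokine receptor gene rose as well. IL6 was nearly level among the IFN-γ libraries, at 4.39, 4.50 and 4.27 TPM, and reached 24.9, 13.6 and 29.6 TPM with CX3CL1 added. The log2 fold change of IL6 was 2.07 ± 0.22 (SE, adjusted p = 0.000754). It was the only one of the 9 tested IL-6 family and colony-stimulating factor genes called without the block (beside 0.345% of all genes tested), while the list median was 0.34. With the block over 12 libraries 3 of these 9 were called higher (beside 0.749%). CCL20, which attracts cells bearing CCR6, rose from 2.28, 3.09 and 5.08 TPM to 20.2, 15.3 and 22.4 TPM (log2 fold change 2.21 ± 0.25 SE, adjusted p = 0.00101), and it was the only one of 11 tested CC chemokines called without the block. With the block over 12 libraries 3 were called higher (beside 0.749% of all genes tested), and 6 in the paired fit of 6 libraries (beside 2.58%). Those called only in the paired fit were CCL3 (1.00, adjusted p = 0.0482), CCL4 (0.56, adjusted p = 0.0253) and CCL17 (1.00, adjusted p = 0.0281).

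IL13RA2, the receptor chain for IL-13 that is often described as a decoy, at chrX:147383476-147429192, had the smallest adjusted p of all genes in this comparison. It was at 3.89, 4.52 and 3.24 TPM with IFN-γ and at 20.9, 21.5 and 19.1 TPM with CX3CL1+IFN-γ, with little spread within either group. The log2 fold change of IL13RA2 was 2.14 ± 0.13 (SE, adjusted p = 9.84e-06), and leaving out 1 library kept it between 2.05 and 2.24. The other 3 tested chains of the IL-4 and IL-13 receptors had log2 fold changes between 0.05 and 0.43 and were not called, and IL4RA (0.43) was called in the paired fit of 6 libraries (adjusted p = 0.0298).

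IL1A, the gene of the cytokine IL-1α, was at 1.75, 0.334 and 0.440 TPM with IFN-γ and at 8.27, 2.93 and 4.05 TPM with CX3CL1+IFN-γ. Its log2 fold change was 1.71 ± 0.30 (SE, adjusted p = 0.0283), and it was called again in 2 of the 6 leave-one-out fits, those without IFN-γ replicate 1 and without CX3CL1+IFN-γ replicate 2. With the block it was called in all 6 such fits. IL1B did not pass the filter, with no IFN-γ or CX3CL1+IFN-γ library above 0.157 TPM.

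Regulators and a subunit of NF-kB rose. NFKBIZ, which encodes the nuclear IkB protein IkB-zeta, a coactivator at IL6 and other secondary response genes, was at 17.3, 8.46 and 10.4 TPM with IFN-γ and at 89.9, 47.8 and 72.6 TPM with CX3CL1+IFN-γ. NFKBIZ had a log2 fold change of 2.46 ± 0.24 (SE, adjusted p = 0.000331). ZC3H12A encodes Regnase-1, an RNase that degrades inflammatory mRNA, and it rose from 10.02, 6.54 and 7.08 TPM to 60.8, 27.2 and 46.4 TPM (log2 fold change 2.31 ± 0.27 SE, adjusted p = 0.00128). Both genes had replicate 2 as the lowest library of each group. NFKB1, which encodes the p105 precursor of the p50 subunit, rose from 83.1, 84.6 and 83.2 TPM to 144.7, 142.2 and 159.5 TPM (log2 fold change 0.82 ± 0.10 SE, adjusted p = 0.00151).

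Over the list of 11 NF-kB subunits and IkB proteins, all of which were tested, 2 were called higher without the block (NFKB1 and NFKBIZ, beside 0.345% of all genes tested) and none lower, with a median log2 fold change of 0.33. With the block over 12 libraries the count was 4 (beside 0.749% of all genes), with BCL3 (1.46, adjusted p = 0.00653) and NFKBID (0.88, adjusted p = 0.0137) added, and in the paired fit of 6 libraries it was 5 (beside 2.58%), with NFKBIA (0.86, adjusted p = 0.0232). RELA, the gene of the p65 subunit, was at 74.0, 68.2 and 74.9 TPM and at 89.4, 66.7 and 64.9 TPM, with overlapping groups and a log2 fold change of 0.01 ± 0.13 (SE, adjusted p = 0.996). Of 16 tested NF-kB feedback and adaptor genes, ZC3H12A was the only one called without the block (beside 0.345% of all genes tested). With the block over 12 libraries 2 were called higher (beside 0.749%), with MAP3K8 (0.95, adjusted p = 0.00526) added. In the paired fit of 6 libraries 4 were called higher (beside 2.58%). TNFAIP3, the gene of the inhibitor A20, had a log2 fold change of 0.59 ± 0.17 (SE, adjusted p = 0.415 without the block).

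Of the checkpoint ligands and suppressive enzymes, 2 of 9 tested genes were called higher (beside 0.345% of all genes tested), and both encode enzymes. NOS2, the inducible nitric oxide synthase at chr11:78920787-78960254, was at 2.29, 0.318 and 1.07 TPM with IFN-γ and at 39.4, 5.15 and 31.9 TPM with CX3CL1+IFN-γ. Replicate 2 was far below replicates 1 and 3 in both groups, and the groups did not overlap. The log2 fold change of NOS2 was 3.28 ± 0.61 (SE, adjusted p = 0.0444; with the block over 12 libraries, adjusted p = 0.00315). Without the block it was called in only 1 of the 6 leave-one-out fits, that without CX3CL1+IFN-γ replicate 2, where its log2 fold change was 4.13, and with the block it was called in all 6. PTGS2, which encodes cyclooxygenase 2, was even among the IFN-γ libraries, at 199.3, 191.8 and 196.5 TPM, and was at 467.9, 361.6 and 392.7 TPM with CX3CL1 added (log2 fold change 1.04 ± 0.15 SE, adjusted p = 0.00904). CD274, the gene of PD-L1, was at 19.7, 20.4 and 68.1 TPM and at 34.7, 27.4 and 72.2 TPM, with overlapping groups and no call (log2 fold change 0.43 ± 0.43 SE, adjusted p = 0.975). IDO1 differed by 0.03 ± 0.17 (SE, adjusted p = 0.993).

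Among the 9 matrix metalloproteinases tested, the 3 called (beside 0.345% of all genes tested) were MMP13, MMP10 and MMP3, which lie near each other on chromosome 9 and encode a collagenase and both of the classical stromelysins. MMP13 rose from 7.62, 4.62 and 6.52 TPM to 26.2, 15.5 and 25.1 TPM (log2 fold change 1.67 ± 0.23 SE, adjusted p = 0.00783). MMP10 rose from 0.592, 0.909 and 0.590 TPM to 2.63, 1.98 and 2.85 TPM (log2 fold change 1.03 ± 0.17 SE, adjusted p = 0.021). MMP3 stayed under 1 TPM, at 0.0772, 0.0248 and 0.0245 TPM and at 0.440, 0.551 and 0.515 TPM (log2 fold change 0.53 ± 0.10 SE, adjusted p = 0.047). Without the block, the call of MMP13 was lost without CX3CL1+IFN-γ replicate 1 or 3, that of MMP10 held only without replicate 2 of either group, and that of MMP3 was lost in each of the 6 leave-one-out fits. With the block over 12 libraries all 3 were called (MMP13 adjusted p = 0.00039). Of the 6 blocked leave-one-out fits, MMP13 was called in all 6, MMP10 in 2 and MMP3 in 1. MMP14, the most abundant of the family, was at 93.8 to 108.5 TPM with IFN-γ and at 84.0 to 102.5 TPM with CX3CL1+IFN-γ (log2 fold change -0.13 ± 0.10 SE, adjusted p = 0.975). Of the 2 tested TIMP genes, inhibitors of these proteases, TIMP1 had a log2 fold change of 0.14 and TIMP2 of -0.19, and neither was called.

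The remaining called genes fell outside the lists of cytokines and NF-kB. GLRX (glutaredoxin, which reduces protein disulfides) and SOD2 (the mitochondrial superoxide dismutase) are antioxidant enzymes. GLRX rose from 36.4 to 50.6 TPM with IFN-γ to 79.7 to 129.1 TPM (log2 fold change 1.32 ± 0.22 SE, adjusted p = 0.021), and SOD2 rose from 54.3 to 64.7 TPM to 85.5 to 140.3 TPM (log2 fold change 0.91 ± 0.16 SE, adjusted p = 0.0283). SLPI, a secreted inhibitor of neutrophil proteases, had a log2 fold change of 1.10 (adjusted p = 0.0243), and HCAR2, the niacin receptor, one of 1.23 (adjusted p = 0.0351). HCAR2 was scarce, at 0.112 to 0.211 TPM with IFN-γ and 0.645 to 2.71 TPM with CX3CL1+IFN-γ. PLK2, a stress-induced kinase, reached 276.2 to 399.4 TPM from 159.2 to 191.0 TPM (log2 fold change 0.95, adjusted p = 0.0327). ODC1, the rate-limiting enzyme of polyamine synthesis, was the most abundant of the genes called, at 856.1 to 934.6 TPM with IFN-γ and 1259 to 1498 TPM with CX3CL1+IFN-γ (log2 fold change 0.62, adjusted p = 0.0243).

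PRL2C2, a proliferin gene of the prolactin family, rose by 1.56 (adjusted p = 0.021), and its value is uncertain since the family has near-identical copies. Genes of other roles were TGFBR3 (betaglycan, a TGF-β co-receptor) with a log2 fold change of 0.95, BCL2L11 (the proapoptotic protein BIM) with 0.90, SLC11A1 (a metal transporter) with 0.91, POU2F2 (the transcription factor OCT-2) with 1.07 and ELL2 (a transcription elongation factor) with 1.10. The other genes called higher, which had log2 fold changes between 0.55 and 1.67, were U90926, LANCL3, RND3, GSAP, FNDC7, COL8A1, DHRS1, NOL4, FGFR1OP, LRIG1, PLSCR1 and GCNT2. Of the genes in these 2 groups, LANCL3 and FNDC7 were called in all 6 leave-one-out fits.

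Only 2 genes were called lower. CLDN6, which encodes a tight junction claudin, at chr17:23679249-23682446, was at 65.8, 71.6 and 67.3 TPM with IFN-γ and at 26.5, 36.1 and 29.8 TPM with CX3CL1+IFN-γ. It fell by 1.13 ± 0.11 on the log2 scale (SE, adjusted p = 0.000331), and leaving out 1 library kept its log2 fold change between -1.25 and -1.03. FCER1G, the common Fc receptor gamma chain, was at 0.530, 0.615 and 0.709 TPM with IFN-γ, and at 0.181 TPM in replicate 1 and listed at 0 in replicates 2 and 3 with CX3CL1+IFN-γ (log2 fold change -0.61 ± 0.12 SE, adjusted p = 0.047). Its call was lost in each of the 6 leave-one-out fits, with a pseudocount of 0.1 and under both other scalings. With the block over 12 libraries, COL1A2 (-0.42), KRT20 (-0.61), SPNS2 (-0.76) and CDSN (-0.53) were also called lower, with COL1A2, SPNS2 and CDSN named here after their values were seen.

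**Figure D2:**
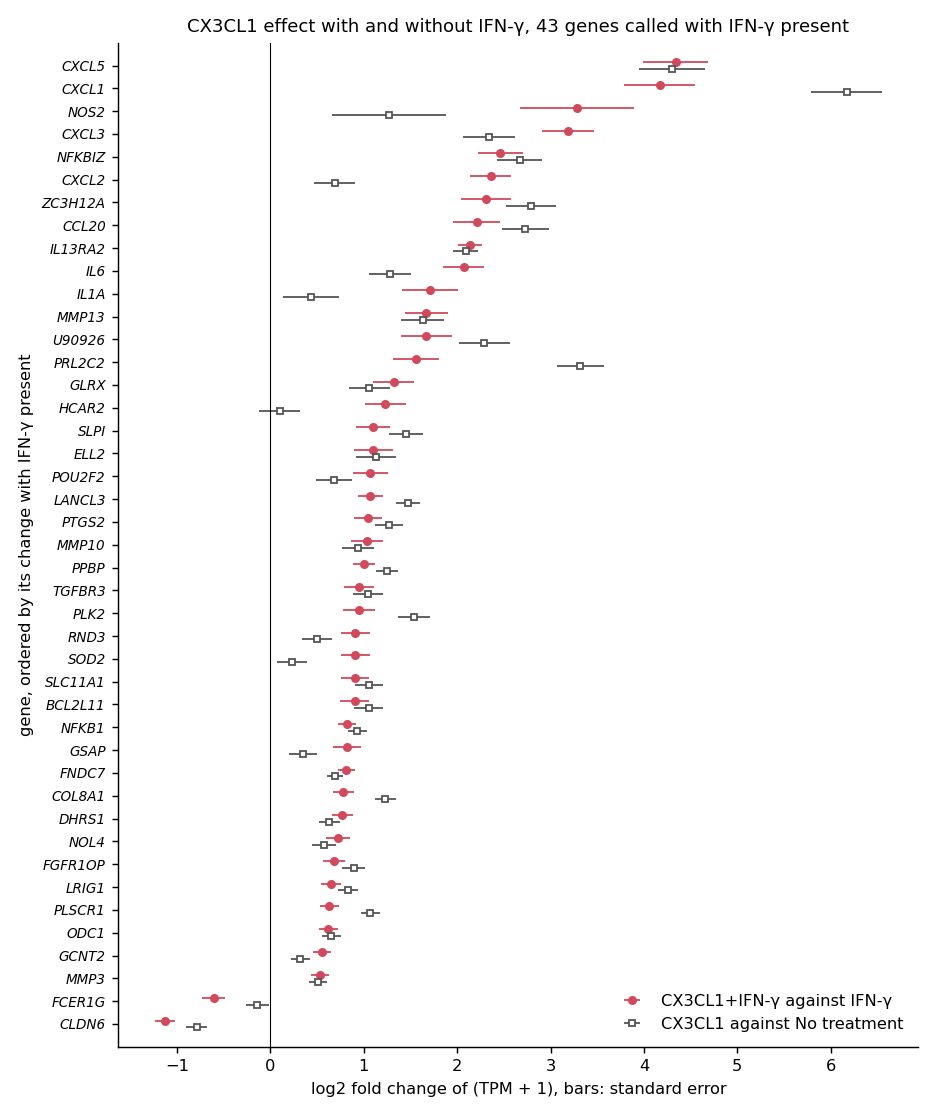
Log2 fold change of TPM + 1 with its standard error for the 43 genes called with IFN-γ present: filled circles for CX3CL1+IFN-γ against IFN-γ, open squares for CX3CL1 against No treatment. CXCL5 at 4.34 and CXCL1 at 4.17 head the order, CLDN6 at -1.13 closes it, and each gene has the same sign in both comparisons.

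Several chemokine and acute-phase genes were called with the block over 12 libraries, and not in the fit that did not use the replicate numbers. Of the 6 leave-one-out fits without the block, CCL2, CCL7, CEBPD and CSF3 were called in 1 each. CCL2, the monocyte chemokine MCP-1, was at 27.6, 10.6 and 27.8 TPM with IFN-γ and at 161.6, 55.7 and 170.5 TPM with CX3CL1+IFN-γ. Replicate 2 was low in both groups, and the differences within the same number, 2.51, 2.29 and 2.57 on the log2 scale, were close to each other. Its log2 fold change was 2.46 ± 0.54 (SE, adjusted p = 0.123; with the block over 12 libraries, adjusted p = 0.00306). CCL7, its neighbour on chromosome 11 and also a monocyte chemokine, was at 9.34, 2.07 and 6.36 TPM and at 44.2, 12.5 and 32.1 TPM (log2 fold change 2.15, adjusted p = 0.146; with the block, adjusted p = 0.00199). Both were called in all 6 blocked leave-one-out fits.

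LCN2, the iron-chelating acute-phase protein lipocalin 2, was at 586.8, 42.4 and 98.9 TPM with IFN-γ and at 1416, 187.7 and 472.6 TPM with CX3CL1+IFN-γ. The groups overlapped, since replicate 1 with IFN-γ alone exceeded replicates 2 and 3 with CX3CL1 added, while each library was above the one of its own number. Its log2 fold change was 1.88 ± 1.02 (SE, adjusted p = 0.975; with the block over 12 libraries, adjusted p = 0.0223), and of the 6 blocked leave-one-out fits it was called in 1. SAA3, serum amyloid A3, had the same order of replicates, at 175.0, 68.1 and 82.9 TPM and at 635.8, 167.5 and 241.3 TPM (log2 fold change 1.56, adjusted p = 0.886; with the block, adjusted p = 0.00353). CEBPD, a C/EBP factor induced in acute-phase responses, was at 38.7, 7.38 and 10.2 TPM and at 107.7, 54.1 and 76.0 TPM (log2 fold change 2.32, adjusted p = 0.0513; with the block, adjusted p = 0.00594). CSF3, the gene of G-CSF, was at 0.471, 0.0350 and 0.138 TPM and at 9.39, 1.50 and 2.66 TPM (log2 fold change 1.93, adjusted p = 0.146; with the block, adjusted p = 0.0161, and called in 2 of the 6 blocked leave-one-out fits).

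The other genes of this kind that the rule named were DHRS3 (a retinal reductase) with a log2 fold change of 1.64, FAS (the death receptor CD95) with 1.58, BCL3 (an IkB family coactivator) with 1.46 and THBS1 (thrombospondin 1) with 1.46. With the block over 12 libraries the adjusted p was 0.00344 for DHRS3, 0.0132 for FAS, 0.00653 for BCL3 and 0.000314 for THBS1. Of the 6 blocked leave-one-out fits, DHRS3 and THBS1 were called in all 6, BCL3 in 4 and FAS in 2. NLRP3, the sensor of the inflammasome, was also called with the block and not in the fit without it (1.43, adjusted p = 0.00543). The same held for the IL-6 family gene LIF (1.07, adjusted p = 0.00938) and the adhesion gene ICAM1 (0.64, adjusted p = 0.0303). Each of these 3 was called in 1 leave-one-out fit without the block. NLRP3 was called in 3 of the blocked leave-one-out fits, and LIF and ICAM1 in 2 each. VCAM1, another leukocyte adhesion ligand, was at 160.5 to 284.7 TPM and at 304.0 to 483.0 TPM. It was called in the paired fit of 6 libraries (0.87, adjusted p = 0.00271) and not over 12 libraries with or without the block. Of the leave-one-out fits, it was called in 1 without and 1 with the block.

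**Figure D3:**
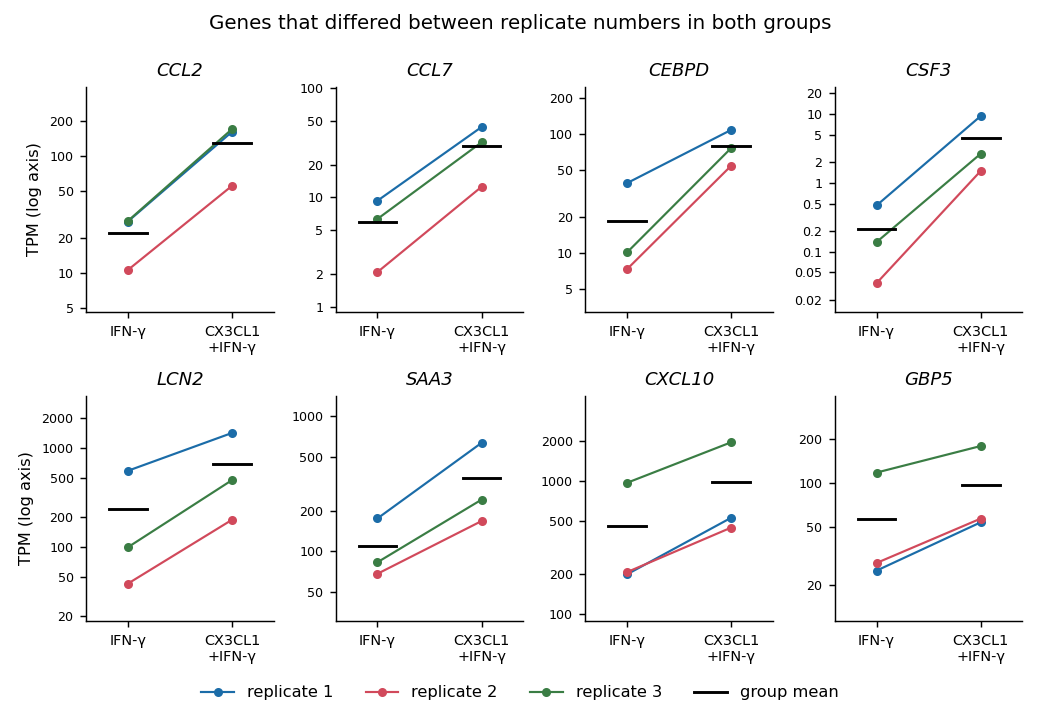
TPM on a log axis of 8 genes in the IFN-γ and CX3CL1+IFN-γ libraries; lines join libraries with the same replicate number and black bars are group means. LCN2, SAA3 and CEBPD are highest in replicate 1 and CXCL10 and GBP5 in replicate 3 of both groups, and each line rises.

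The genes of the interferon lists and the CXCR3 ligands were not called in the fits over 12 libraries when CX3CL1 was added. Some of them were called higher in the paired fit of 6 libraries. None of the 17 interferon-inducible GTPases, the 23 antiviral interferon-stimulated genes, the 14 genes of MHC class I and peptide loading or the 14 IFN-γ signaling genes tested was called, with or without the block over 12 libraries. The median log2 fold change was 0.23 for the GTPases, 0.21 for the antiviral genes, -0.10 for MHC class I and peptide loading and 0.11 for the signaling genes, beside -0.003 for all genes tested. H2-K1, a class I heavy chain, was at 918.2 to 1203 TPM and at 892.2 to 1077 TPM (log2 fold change -0.10 ± 0.19 SE, adjusted p = 0.979).

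In the paired fit of 6 libraries, 4 of 17 GTPases, 8 of 23 antiviral genes and 2 of 3 CXCR3 ligands were called higher. This was beside 2.58% of all genes tested, and none of the MHC class I genes was called there. GBP5, a guanylate-binding protein, was at 25.2, 28.5 and 117.7 TPM with IFN-γ and at 53.9, 57.2 and 178.6 TPM with CX3CL1+IFN-γ (log2 fold change 0.88, adjusted p = 0.00715 in this fit). The antiviral genes called had log2 fold changes from 0.33 (MX2) to 0.59 (RSAD2). Of the 3 CXCR3 ligands, which attract T cells, CXCL10 was at 199.5, 207.3 and 973.6 TPM and at 531.8, 448.4 and 1965 TPM, with overlapping groups and a rise within each number. CXCL10 had a log2 fold change of 1.18 ± 0.62 (SE, adjusted p = 0.975; in the paired fit of 6 libraries, adjusted p = 0.00167). CXCL11 had 0.67 (adjusted p = 0.0236 in the paired fit), and CXCL9 had 0.19 and was not called in any of the 3 fits. SOCS3, an inhibitor of JAK signaling downstream of IL-6 family receptors, was called in the paired fit only (0.88, adjusted p = 0.00167), and so was JAK2 (0.59, adjusted p = 0.00954).

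The effect of CX3CL1 with IFN-γ present was set beside its effect without, in libraries that the first comparison does not contain. CX3CL1 against No treatment called 232 genes (1.95%; 212 higher, 1.78%). All 43 genes had the same sign in both comparisons, and 33 of them were also called without IFN-γ, CLDN6 lower and the others higher. IL13RA2 had log2 fold changes of 2.09 without and 2.14 with IFN-γ, CXCL5 of 4.30 and 4.34, MMP13 of 1.63 and 1.67, and NFKB1 of 0.93 and 0.82. These are changes of TPM + 1, which understate a rise from a low level. Mean CXCL5 went from 0.0797 to 21.7 TPM without IFN-γ and from 1.79 to 54.9 TPM with it. Mean IL13RA2 went from 0.354 to 4.79 TPM and from 3.88 to 20.5 TPM. In TPM, the ratios of both genes were larger without IFN-γ. The 10 genes not called without IFN-γ were NOS2, CXCL2, IL1A, HCAR2, POU2F2, SOD2, GSAP, GCNT2, RND3 and FCER1G. A missing call there was not always a missing rise. NOS2 was at 0 to 0.0885 TPM with No treatment and at 0.368 to 3.70 TPM with CX3CL1 alone. IL1A was at 0 to 0.0602 TPM and at 0.245 to 0.451 TPM. At such levels the added 1 keeps the log2 fold change small. CXCL2, at 0.300, 0.970 and 0.655 TPM with CX3CL1 alone and listed at 0 in the 3 No treatment libraries, had a log2 fold change of 0.69 without IFN-γ and 2.36 with it. SOD2 was at 54.6 to 57.7 TPM with No treatment and 59.6 to 73.7 TPM with CX3CL1 alone (log2 fold change 0.23 ± 0.16 SE, adjusted p = 0.971).

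More interferon-stimulated genes were called with CX3CL1 alone than with CX3CL1 added to IFN-γ, where none was called without the block and the rises called in the paired fit of 6 libraries were those given above. Fewer calls with IFN-γ present were not particular to these genes. Over all genes tested the counts were 232 and 43. Of the 11 NF-kB subunits and IkB proteins, 8 were called higher with CX3CL1 alone and 2 with IFN-γ present, without the block. The CXCR2 ligands went the other way, with 4 and 5 called. CX3CL1 alone called 20 of the 23 antiviral genes and 9 of the 17 GTPases higher, beside 1.78% of all genes tested, with median log2 fold changes of 1.83 and 1.71 (all genes tested: -0.02). In the IFN-γ against No treatment comparison, which shares the IFN-γ libraries, 23 of 23 and 17 of 17 were called higher, beside 5.91% of all genes tested. In that comparison 932 genes (7.85%) were called, 702 higher and 230 lower (1.94%), while after quantile normalization 556 were higher and 536 lower. OASL2, an antiviral oligoadenylate synthetase-like gene, was at 30.1 to 53.3 TPM with No treatment, 162.6 to 226.7 TPM with CX3CL1, 262.0 to 399.0 TPM with IFN-γ and 349.0 to 434.0 TPM with both. Its change after CX3CL1 was 2.06 without IFN-γ (standard error 0.22) and 0.21 with it (standard error 0.22). GBP3 had 2.83 and 0.34, and ISG15, a ubiquitin-like protein, had 2.14 and 0.00. The test of the difference between both CX3CL1 effects, an interaction in limma over 12 libraries, called 0 of the 11878 genes (0.00%), and 273 had an unadjusted p under 0.05, so that these differences did not pass the threshold without a block. With the block it called 52 genes (0.438%; 3 higher, 0.0253%, and 49 lower, 0.413%). Same-numbered libraries of all pairs of groups correlated in their deviations at over 0.1, except replicate 2 of CX3CL1 and No treatment (0.005) and replicate 3 of CX3CL1+IFN-γ and No treatment (0.032).

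**Figure D4:**
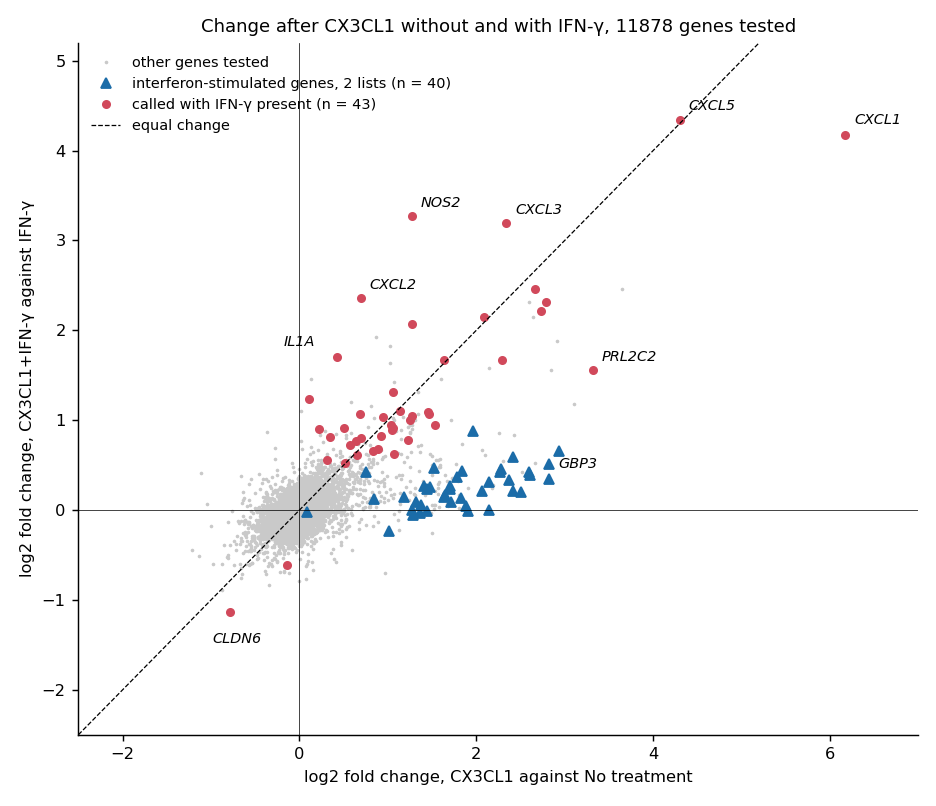
Log2 fold change after CX3CL1 without IFN-γ (x axis, CX3CL1 against No treatment) and with IFN-γ (y axis, CX3CL1+IFN-γ against IFN-γ) for 11878 genes tested; circles are the 43 genes called with IFN-γ, triangles the 40 tested genes of the antiviral and GTPase lists, and the dashed line marks equal change. The circles scatter around the line, and the triangles lie between -0.23 and 0.88 on the y axis.

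**Figure D5:**
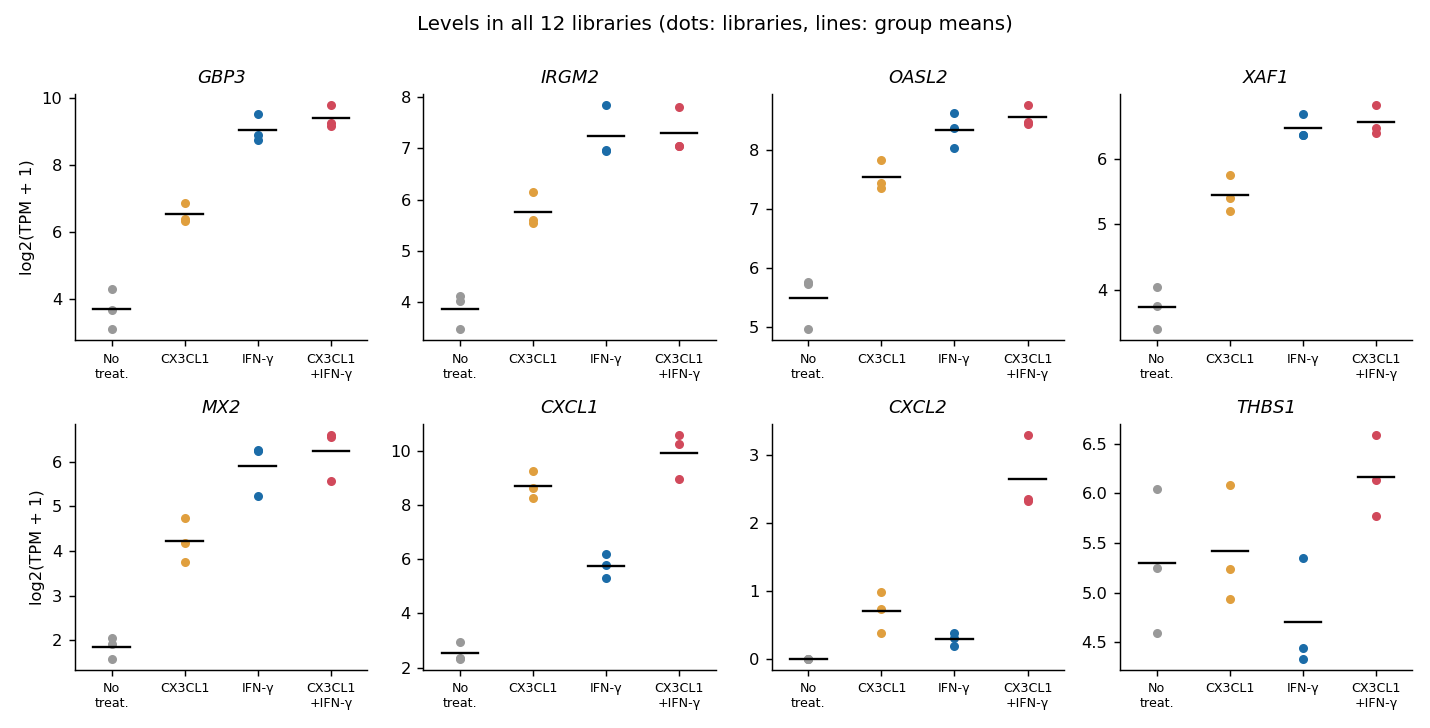
Log2(TPM + 1) of 8 genes in all 12 libraries; dots are libraries and lines group means. GBP3, IRGM2, OASL2, XAF1 and MX2 are near one level in both IFN-γ groups and lower with CX3CL1 alone, CXCL1 and CXCL2 are highest with both agents, and THBS1 is higher with both agents than with IFN-γ alone.

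The CX3CR1 transcript was low in these libraries, at 0.0673, 0.0541 and 0.118 TPM with IFN-γ and at 0.154, 0 and 0.139 TPM with CX3CL1+IFN-γ, and did not pass the filter. The transcript of CX3CL1 itself was listed at 0 in all 6. Transcript levels do not measure protein, and the study reports high CX3CR1 on CT26 cells by flow cytometry. It also reports that its CX3CR1 antibody lowered CXCL1 and M-CSF secretion and IL-6 and NLRP3 mRNA in cells given CX3CL1. The receptor through which CX3CL1 acted was not tested here. ADAM17, a protease that sheds membrane-bound CX3CL1, was at 34.6 to 36.8 TPM and at 43.7 to 45.3 TPM (log2 fold change 0.31, adjusted p = 0.708; in the paired fit of 6 libraries, adjusted p = 0.0403). ITGB1, an integrin subunit, had a log2 fold change of 0.13 (adjusted p = 0.975), and ITGB3 was at or under 0.0136 TPM. TLR4, which encodes the endotoxin receptor, and CD14, its co-receptor, had log2 fold changes of 0.20 and 0.17 (adjusted p = 0.975 for each).

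Of 10 epithelial markers, 2 passed the filter (KRT18 and KRT20) and EPCAM was listed at 0 in all libraries, while VIM, the mesenchymal filament vimentin, was at 2423 to 3549 TPM with IFN-γ and at 1684 to 3135 TPM with CX3CL1+IFN-γ. KRT20 was at 14.5, 10.8 and 9.70 TPM and at 8.69, 6.60 and 6.44 TPM (log2 fold change -0.61, adjusted p = 0.79; with the block over 12 libraries, adjusted p = 0.013). Of 15 leukocyte markers, 2 passed the filter (CD68 and S100A8), neither was called, PTPRC was at or under 0.0441 TPM, and the summed level of the list was 10.5 to 23.1 TPM with IFN-γ and 10.9 to 33.7 TPM with CX3CL1+IFN-γ. S100A8 and CD68 were highest in replicate 1 of both groups, as LCN2 and SAA3 were, and the part of this in the results was not tested. None of 14 cell cycle genes and 9 reference genes was called, with medians of -0.07 and 0.01. Of 18 tested AP-1, immediate early and C/EBP genes, none was called without the block. With the block over 12 libraries 2 were called higher, CEBPD and IER3 (beside 0.749% of all genes tested). JUN, an AP-1 subunit, had a log2 fold change of 0.03 after 8 hours.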

How the data were processed

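RNA was sequenced from strand-specific mRNA libraries of CT26 cells in 4 groups of 3. The authors aligned reads to mm10 with STAR 2.7.3a (per the labels, with DESeq2 1.22.1 for their tests) and deposited TPM scaled to 1000000 per library; the annotation and how TPM were computed are not given in the sources used here. Depth is unknown, so no counting interval could be given. Of 23636 symbols, 6747 were at 0 in all libraries, 26 had been turned into dates and 2 names occurred more than once. Groups came from the labels, and doses and time from the study's methods and figure legend.

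TPM were tested as log2(TPM + 1) with limma 3.58.1 in R 4.3.3 (lmFit, eBayes with an intensity trend, all 12 libraries, no block) where the mean over the libraries reached 0.2 TPM. P-values were adjusted by Benjamini-Hochberg over 11878 genes, with a threshold of 0.05. On simulated data made from these libraries for CX3CL1+IFN-γ against IFN-γ, the test found 174 of the 200 altered genes where the true log2 difference was 1 (7 false calls), and 199 where it was 2 (15 false calls), over 11878 genes. The altered genes were drawn only from those with a mean log2(TPM + 1) above 2, and the simulated libraries were not paired by replicate number. The rates found therefore do not cover genes of lower TPM or paired libraries. The labels call the replicates biological; whether they were cultured separately is not stated, so p-values measure only the spread between these samples, which may be technical.

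The groups share replicate numbers. Deviations from the group means of same-numbered CX3CL1+IFN-γ and IFN-γ libraries correlated at 0.63, 0.635 and 0.649 across genes, so these numbers were taken to pair the libraries. For CX3CL1 and No treatment they were 0.387, 0.005 and 0.301, which did not pair them, although other pairs of groups, such as CX3CL1 and IFN-γ (0.584, 0.361 and 0.226), correlated by number. The pairing comes from the data alone, since no source says what a number shares.

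Named were all genes called in CX3CL1+IFN-γ against IFN-γ, up to 10 more with the largest change among those called with the block over 12 libraries only, up to 10 with the smallest adjusted p in the blocked interaction, the members of the gene lists where a list is described, and CX3CR1 and cell line markers. The members were set by their labels. That choice, the lists and the rules were made with earlier results of these data known. The alternatives tried were adding 0.1 in place of 1, testing without any filter or with one at 1 TPM, quantile normalization, median-ratio scaling, no intensity trend, only the 6 libraries compared, the replicate block, both of these, and leaving out each library. Leaving out libraries with the block was chosen after seeing the data. Gene positions came from GENCODE vM21 by symbol (98.9% of the genes tested) and promoters from RefSeq. Tables and figures were made with Python 3.11.15, pandas 2.3.3 and matplotlib 3.10.9. Results on some genes are not reported here.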

Additional observations from a re-analysis of the deposited data

Results flagged for a closer look

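The difference between the CX3CL1 effect with IFN-γ and that without passed the threshold (adjusted p in limma under 0.05) for the genes named here, in the fit with the replicate number as a block over 12 libraries. That fit called 52 genes for this difference (0.438%; 3 positive and 49 negative), and the fit without the block called 0. Same-numbered libraries deviated together in most pairs of groups, but not in replicate 2 of CX3CL1 and No treatment (correlation 0.005) or replicate 3 of CX3CL1+IFN-γ and No treatment (0.032), so the numbers were not taken to pair all 4 groups.

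The difference was negative, a smaller rise with IFN-γ present, for the following genes, which were not called with IFN-γ present in the fits over 12 libraries. In the paired fit of 6 libraries GBP3, C3, TNFRSF9, TOR3A and MX2 were called higher with IFN-γ present. The difference was -2.48 for GBP3 and -1.84 for IRGM2 (interferon-inducible GTPases), -1.85 for OASL2, -1.62 for XAF1, -1.45 for RTP4 and -1.03 for IFI35 (interferon-stimulated genes), -2.14 for the complement gene C3 and -1.75 for TNFRSF9, the gene of the receptor 4-1BB. TOR3A, a torsin family gene, had -1.37. Among list members that are named above, the interferon-stimulated genes ISG15 and MX2 had -2.14 and -2.03. IRGM2, for example, was at 10.2 to 16.5 TPM with No treatment and 45.5 to 70.2 TPM with CX3CL1, and at 121.7 to 227.2 TPM with IFN-γ and 130.6 to 221.7 TPM with CX3CL1+IFN-γ.

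Of the 43 genes called with IFN-γ present, CXCL1 had a difference of -2.00 and PRL2C2 of -1.76, in each case with a rise in both settings. CXCL1 rose by 6.17 on the log2 scale without IFN-γ (4.03 to 6.70 TPM, then 305.0 to 620.3 TPM) and by 4.17 with it. CXCL2 had a positive difference of 1.67 (adjusted p = 0.0494), and its No treatment libraries were all listed at 0. THBS1 had 1.33, with log2 fold changes of 0.13 without and 1.46 with IFN-γ.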

How the results depend on the processing

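The number of genes changed between CX3CL1+IFN-γ and IFN-γ was 43. It was 28 without the filter on low TPM, 20 when the fit held just those 6 libraries, 95 with the replicate block over 12 libraries and 407 with the replicate block over these, and leaving out 1 library gave 16 to 54 (with the block, 35 to 80). It was 35 to 49 under the other alternatives. None of the 43 genes changed sign under an alternative, and 29 lost their call in at least 1 fit that left out 1 library. The interaction called 0 genes, 1 after quantile normalization and 52 with the replicate block, and 0 to 11 when 1 library was left out, with 11 without No treatment replicate 1. CX3CL1 against No treatment called 232 genes, 455 with the replicate block and 152 to 268 when 1 library was left out, and IFN-γ against No treatment called 932, 1929 with the block and 530 to 764. Some genes named for their interaction changed sign in CX3CL1+IFN-γ against IFN-γ, and none of these was called in that comparison over 12 libraries. They were C3 (leave-one-out range -0.03 to 1.04, lowest without CX3CL1+IFN-γ replicate 1), XAF1 (-0.04 to 0.20, lowest without CX3CL1+IFN-γ replicate 3), RTP4 (-0.02 to 0.13, lowest without IFN-γ replicate 1, and -0.02 with the block without CX3CL1+IFN-γ replicate 2) and IRGM2 (-0.21 to 0.34, with -0.11 and -0.09 without IFN-γ replicates 1 and 2, -0.21 without CX3CL1+IFN-γ replicate 3, and with the block -0.08 and -0.02 without IFN-γ replicate 1 and CX3CL1+IFN-γ replicate 3). Members of the lists named in the text that also changed sign when 1 library was left out were RELA, CXCL9, CCL5, JUN, ISG15, MX2, IDO1, CD68 and S100A8, none of them called without the block. For counts that moved, the cause was not tested, except that fits that leave out a library hold fewer samples. Depth is unknown, so low TPM such as those of MMP3 and FCER1G carry an error that could not be given.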

Other observations

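Genes lower after CX3CL1 was added changed by small amounts. Of the 101 genes called lower in the paired fit of 6 libraries, 100 had a log2 fold change under 1 in size, and the exception was CLDN6 (-1.13). The next in size, chosen after their values were seen, were HIST1H2BJ, a replication-dependent histone gene (-0.83 ± 0.12 SE, adjusted p = 0.0184), DYNAP (-0.78 ± 0.07 SE, adjusted p = 0.0033), SPNS2, a sphingosine 1-phosphate transporter (-0.76 ± 0.06 SE, adjusted p = 0.0026), HBB-BH1, an embryonic globin gene (-0.71 ± 0.13 SE, adjusted p = 0.0469), TMEM200A (-0.71 ± 0.10 SE, adjusted p = 0.0201) and SOX2, a stem cell transcription factor (-0.69 ± 0.11 SE, adjusted p = 0.0264). COL1A1, which encodes a type I collagen chain, was at 48.9, 55.1 and 37.5 TPM with IFN-γ and at 27.2, 41.2 and 25.1 TPM with CX3CL1+IFN-γ, with a log2 fold change of -0.60 (adjusted p = 0.019 in that fit and 0.178 with the block over 12 libraries). It was lower in each of the 3 pairs with the same number, which was the case for 25.6% of all genes tested.

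CSF2, the gene of GM-CSF, was at 0.419, 0.556 and 0.849 TPM with IFN-γ and at 4.44, 0.881 and 2.40 TPM with CX3CL1+IFN-γ. All CX3CL1+IFN-γ libraries were above the IFN-γ libraries, but the log2 fold change of 1.03 ± 0.29 (SE) was called neither without the block (adjusted p = 0.385) nor in the paired fit of 6 libraries (adjusted p = 0.112). CSF1, the gene of M-CSF, was far more abundant, at 364.7 to 455.3 TPM and at 413.0 to 625.3 TPM, and was not called (log2 fold change 0.34 ± 0.18 SE, adjusted p = 0.975). CCL5 was at 57.9 to 91.4 TPM and at 64.2 to 129.3 TPM, with overlapping groups (log2 fold change 0.29 ± 0.31 SE, adjusted p = 0.975).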
